A study of Danio rerio with 2 samples.

Results

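The 5 genes described here are classical cadherins of the zebrafish: cdh1 (E-cadherin, ENSDARG00000102750), cdh2 (N-cadherin, ENSDARG00000018693), cdh4 (R-cadherin, ENSDARG00000015002), cdh6 (K-cadherin, ENSDARG00000014522) and cdh11 (OB-cadherin, ENSDARG00000021442). They were found by symbol among the 25107 genes of the deposited matrices, each symbol matched exactly 1 row, and all 5 had reads in both libraries. The cells came from Tg(mitfa:GFP) embryos aged 24 hours post fertilization, in which a mitfa transgene is used to mark cells of the pigment lineage with GFP. A flow cytometer had divided the dissociated cells into a mitfa:GFP high and a mitfa:GFP low population, and 1 droplet library of 3′ ends was made from each. Both groups carried the transgene, no separate GFP-negative or non-transgenic population was included, and the labels do not say how many embryos were pooled. With 1 library per group no difference between groups has a replicate check, and every interval given is an exact 95% interval that covers counting error only.

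Classical cadherins are single-pass membrane proteins of adherens junctions. Their extracellular repeats bind cadherins on neighbouring cells in the presence of calcium, and their cytoplasmic tails bind p120-catenin and beta-catenin, which links through alpha-catenin to actin. Cells tend to adhere to cells that carry the same cadherin, and tissues that form or lose epithelia often exchange one family member for another. E-cadherin is the cadherin of epidermis and other epithelia, N-cadherin that of the neural tube, and the exchange between them is known from neural crest delamination, where cadherin-6 orthologues have also been studied, chiefly in chick.

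The cell table of the authors kept 2374 cells of the high library and 2361 of the low library, with 17545390 and 14826056 UMIs and medians of 6858.5 and 5732 UMIs per cell. The libraries shared 1 cell barcode, whose cells lay in different clusters. Levels are UMIs summed over the cells of a cluster in 1 library, per 1000000 UMIs of those cells (CPM). The clusters are the authors' numbers. By leading genes and fixed marker lists they were neural progenitor-like (cluster 0), mesenchyme-like (2), xanthophore-like (3), neuron-like (4), retina-like (5), melanophore-like (6), epidermis-like (7) and muscle-like (8). Cluster 4 took its name from its summed list, since none of its 10 leading genes was a listed neuron marker. Cluster 5 took its name from 4 listed retina markers among its 10 leading genes, although its summed neural progenitor list, at 2176 and 1809 CPM, was above its summed retina list, at 1596 and 1494 CPM. Cluster 1 is given by number. All its cells carried the authors' melanophore label, as did those of cluster 6, but its summed level of 10 neural crest markers was 1769 CPM in the high library and 1947 CPM in the low, its 10 melanophore markers reached 1980 and 335 CPM, and its 16 epidermis markers 1346 and 1258 CPM. In cluster 6 the melanophore markers reached 14761 and 12672 CPM. Its neural crest markers were at 1885 and 2116 CPM and its epidermis markers at 1602 and 835 CPM, so neither of those sums was particular to cluster 1. Cluster 9 held 19 cells of the low library only. The clusters had been computed from the same genes, so differences between clusters are descriptions and carry no test.

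cdh1 was highest in the epidermis-like cluster and in both pigment-cell clusters. In the epidermis-like cluster 7 it stood at 701 CPM in the high library (interval 631 to 775, 374 UMIs) and 737 CPM in the low library (681 to 797, 637 UMIs). The melanophore-like cluster 6 had 493 CPM (464 to 523) in the high library and 506 CPM (419 to 605) in the low. The xanthophore-like cluster 3 had 516 CPM (492 to 542) in the high library and 473 CPM (422 to 527) in the low. Both pigment-cell clusters thus lay below the epidermis-like cluster in each library, with intervals that did not overlap, and did not differ from each other beyond counting error. Cluster 1 was the next in order, at 253 CPM (238 to 269) in the high library and 91.1 CPM (81.1 to 102) in the low. It was the only cluster with 50 or more cdh1 UMIs in both libraries whose intervals for the 2 libraries were apart. In the neural progenitor-like cluster 0, cdh1 stood at 6.48 CPM in the high library and 5.59 CPM in the low, and the neuron-like, retina-like and muscle-like clusters lay between 0 and 33.0 CPM.

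**Figure D1:**
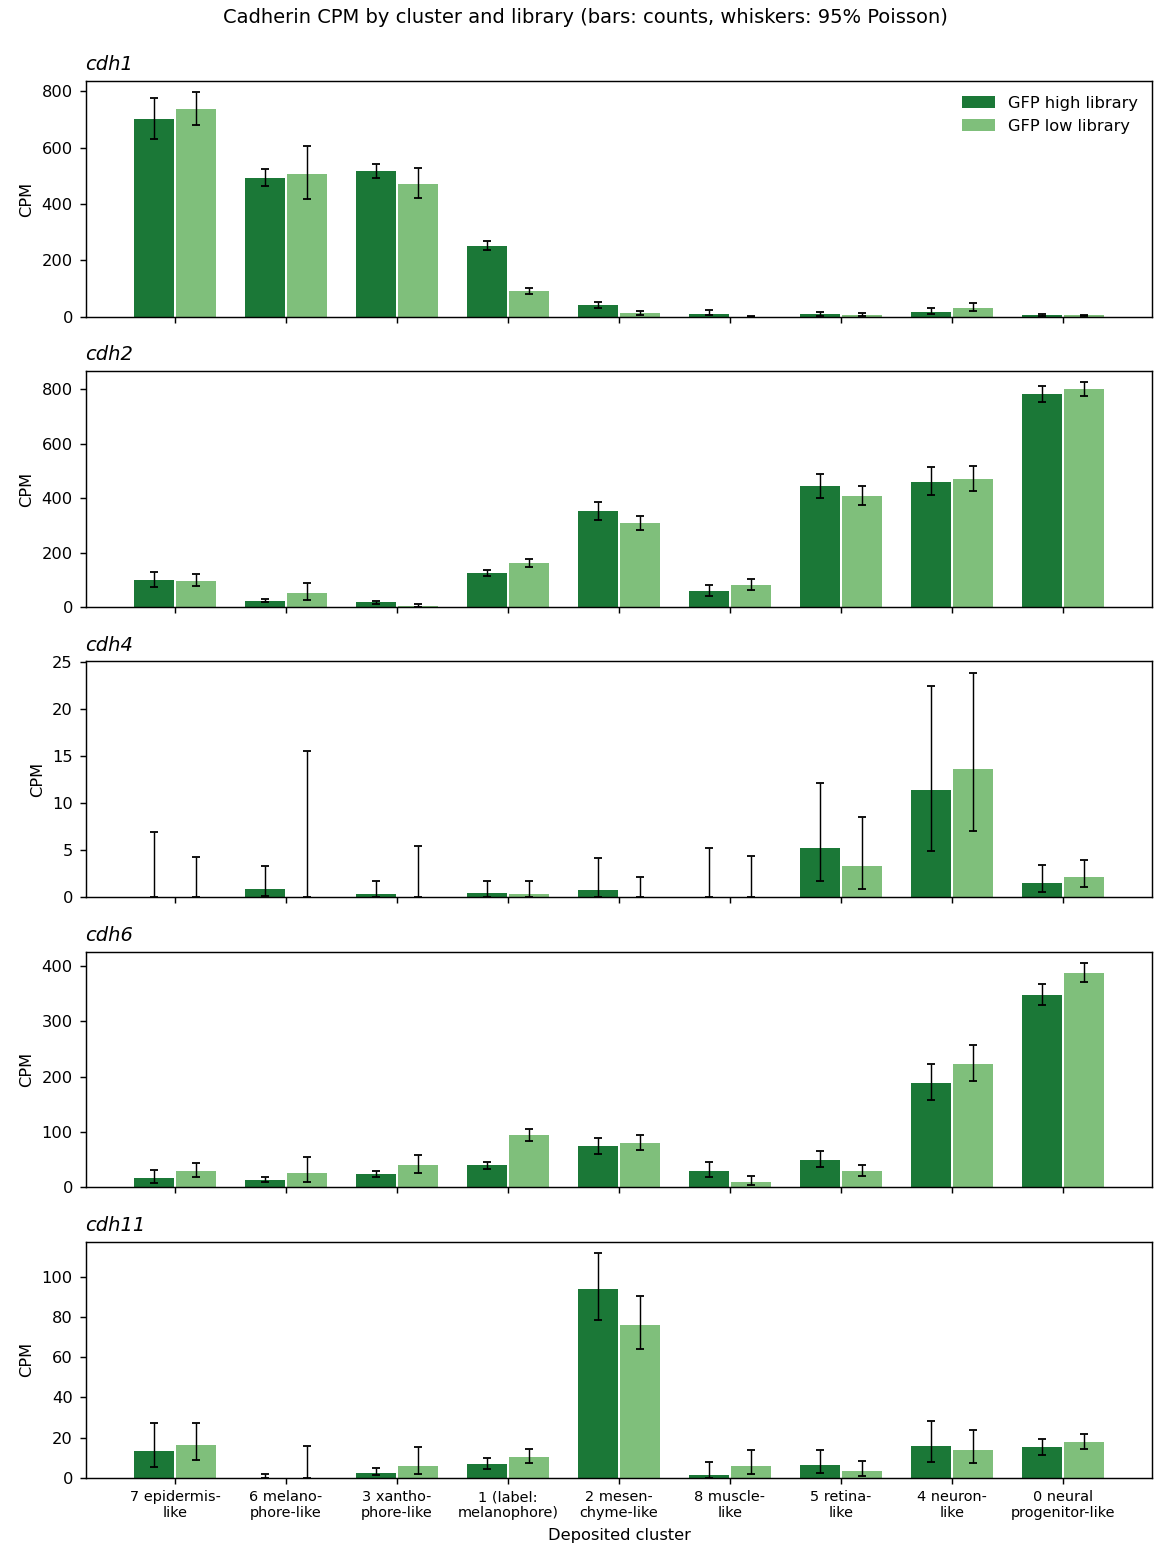
CPM of each cadherin (vertical axis, linear, from 0, own scale per gene) in 9 deposited clusters (horizontal axis), with the high library left of the low library in each pair and whiskers for exact 95% Poisson intervals. cdh1 is tallest in cluster 7 (701 in the high and 737 in the low library), cdh2 and cdh6 in cluster 0, cdh4 in cluster 4 and cdh11 in cluster 2.

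Counted per cell, a cdh1 UMI was found in 82.9% of cells of cluster 7 in the high library and 79.1% in the low, in 93.4% and 90.9% of cluster 6, in 86.7% and 89.7% of cluster 3, and in 61.4% and 32.9% of cluster 1. The neural progenitor-like cluster 0 had one in 2.74% and 1.70% of cells, at median depths of 4447 and 4559 UMIs against 9207 and 8319.5 in cluster 1. After each cell was thinned to 3000 UMIs the shares were 74.1% and 70.6% in cluster 7, 67.2% and 72.6% in cluster 6, 70.8% and 70.7% in cluster 3, 39.9% and 17.7% in cluster 1, and 1.85% and 0.956% in cluster 0. In the pigment-cell clusters cdh1 was spread over most cells at this depth, and in cluster 1 over fewer (55.9% and 28.1% when thinned to 6000 UMIs). In the mesenchyme-like cluster 2 the high library had 54 cdh1 UMIs, or 40.3 CPM, of which 16 lay in 1 cell, against 22 UMIs, or 12.6 CPM, in the low library. The 69 muscle-like cells of the high library had 8 cdh1 UMIs, and the 84 of the low library had none, which allows up to 3.57% of cells with one.

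cdh2 had nearly the reverse order. Its level was highest in the neural progenitor-like cluster 0, at 781 CPM (754 to 810) in the high library and 799 CPM (775 to 824) in the low. The neuron-like cluster 4 had 460.2 and 470.3 CPM, the retina-like cluster 5 443 and 408 CPM, and the mesenchyme-like cluster 2 351 and 308 CPM, the high library given first in each. Clusters 4 and 5 were not set apart from each other in both libraries, whereas cluster 0 lay above cluster 4, cluster 5 above cluster 2, and cluster 2 above cluster 1. Cluster 1 had 124 CPM (114 to 136) in the high library and 161.5 CPM (148 to 176) in the low, the epidermis-like cluster 99.3 and 97.2 CPM, and the muscle-like cluster 58.7 and 81.9 CPM. The pigment-cell clusters were at the bottom. The melanophore-like cluster had 50 cdh2 UMIs in the high library (23.2 CPM, 17.2 to 30.5) and 12 in the low (50.6 CPM, 26.14 to 88.4). Of those 12 UMIs, 8 lay in 1 of 22 cells. The xanthophore-like cluster had 54 UMIs in the high library (16.8 CPM, 12.6 to 22.0) and 2 in the low (2.95 CPM, 0.358 to 10.7).

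The share of cells with a cdh2 UMI was also highest in cluster 0 and low in the pigment-cell clusters. It was 87.7% and 89.2% in cluster 0, 77.0% and 70.6% in cluster 4, 49.7% in cluster 1 of both libraries, and 28.9% and 27.9% in cluster 7. It was lowest in the xanthophore-like cluster 3, at 6.79% and 2.56% of cells that had median depths of 9963.5 and 9142 UMIs. Thinned to 3000 UMIs, cluster 0 kept 83.3% and 84.3%, cluster 1 had 25.7% and 30.1%, and cluster 3 had 3.36% and 0.802%. All 54 UMIs of cluster 3 in the high library lay in 22 of 324 cells. Without the 5% of barcodes with the highest doublet scores, which took out 40 of those 324 cells, the cdh2 level of cluster 3 relative to cluster 1 in the high library was at a log2 ratio of -4.30, against -2.88 with them.

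cdh6, known for roles in the developing kidney and nervous system, was also highest in the neural progenitor-like cluster, at 348 CPM (330.0 to 368) in the high library and 388 CPM (371 to 406) in the low. The neuron-like cluster followed at 188 CPM (157 to 223) and 223 CPM (193 to 257), and the mesenchyme-like cluster at 73.9 and 79.8 CPM. Each of these steps was larger than counting error in both libraries. Cluster 1 had 39.7 CPM (33.8 to 46.3) in the high library and 94.5 CPM (84.2 to 106) in the low. In the remaining 5 clusters the levels lay between 10.7 and 49.8 CPM, with the melanophore-like cluster at 13.4 CPM in the high library and 25.3 CPM in the low (29 and 6 UMIs, 5 of the 6 in 1 cell).

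In the clusters where its level was high, cdh6 was found in a part of the cells. In cluster 0, 42.9% of the cells of the high library and 44.6% of the low had a cdh6 UMI, and the 10% of cells with the most UMIs held 58.1% and 54.8% of them, against 31.3% and 31.1% for cdh2, whose larger UMI count by itself spreads over more cells. In the neuron-like cluster 17.6% and 18.3% of cells had a cdh6 UMI, these cells averaged 5.08 and 5.44 UMIs each, and the top 10% of cells held 87.1% and 90.8% of all cdh6 UMIs. For cdh2 in the same clusters of cells the top 10% held 36.2% and 37.3%. The lowest shares of cells with a cdh6 UMI were in the muscle-like cluster, at 5.80% and 5.95%, and there 17 of the 21 UMIs of the high library lay in 1 cell.

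cdh11, a cadherin of loose mesenchyme and bone-forming cells in mammals, was highest in the mesenchyme-like cluster 2. It had 94.1 CPM there in the high library (78.4 to 112, 126 UMIs) and 76.4 CPM in the low (64.0 to 90.5, 133 UMIs), in 52 of 199 and 65 of 265 cells. These levels were 6.26-fold and 4.30-fold those of the neural progenitor-like cluster, which had 15.0 and 17.8 CPM, and 14.2-fold and 7.37-fold those of cluster 1, which had 6.62 and 10.4 CPM. No other neighbours in the order of cdh11 were set apart in both libraries. The melanophore-like cluster had no cdh11 UMI in 197 cells of the high library (up to 1.52% of cells may have one) nor in 22 cells of the low library (up to 13.6%).

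cdh4, a cadherin named from the retina, was close to the limit of detection. It had 25 UMIs in all cells of the high library and 29 in those of the low. The neuron-like cluster held 8 and 12 of them, or 11.4 CPM (4.92 to 22.5) and 13.7 CPM (7.06 to 23.9), and the retina-like cluster 5 and 4. Against the neural progenitor-like cluster, with 6 and 11 UMIs, the neuron-like cluster was 7.33-fold higher in the high library (log2 2.87, 1.16 to 4.68) and 6.23-fold higher in the low (log2 2.64, 1.33 to 3.96). The neuron-like cluster was not set apart in both libraries from the retina-like cluster, which had 5.19 CPM in the high library and 3.32 CPM in the low. No cdh4 UMI was seen in the epidermis-like or muscle-like clusters, and no order of the other clusters could be read.

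The exchange of cdh1 for cdh2 was followed by the share of cdh1 among the UMIs of both genes, which does not depend on depth or scaling. Its absolute value depends on how well each transcript is captured, so only its differences between clusters are read. The share was 0.822% in the high library and 0.694% in the low in the neural progenitor-like cluster, and 10.3% and 3.94% in the mesenchyme-like cluster. Cluster 1 stood between these and the pigment cells, at 67.1% (64.6 to 69.4) in the high library and 36.1% (32.8 to 39.4) in the low. The epidermis-like cluster had 87.6% and 88.3%, the melanophore-like cluster 95.5% and 90.9%, and the xanthophore-like cluster 96.8% and 99.4%. The 90.9% rested on 120 cdh1 and 12 cdh2 UMIs, and 8 of the cdh2 UMIs lay in 1 cell. In percentage points, cluster 1 was where the cdh1 share differed most between the libraries, among all clusters present in both. As log2 of the cdh1 to cdh2 ratio, cluster 1 was at 1.03 and -0.83. On that scale the libraries were further apart in cluster 3, at 4.94 and 7.32, and in the muscle-like cluster, with 8 and 0 cdh1 UMIs.

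**Figure D2:**
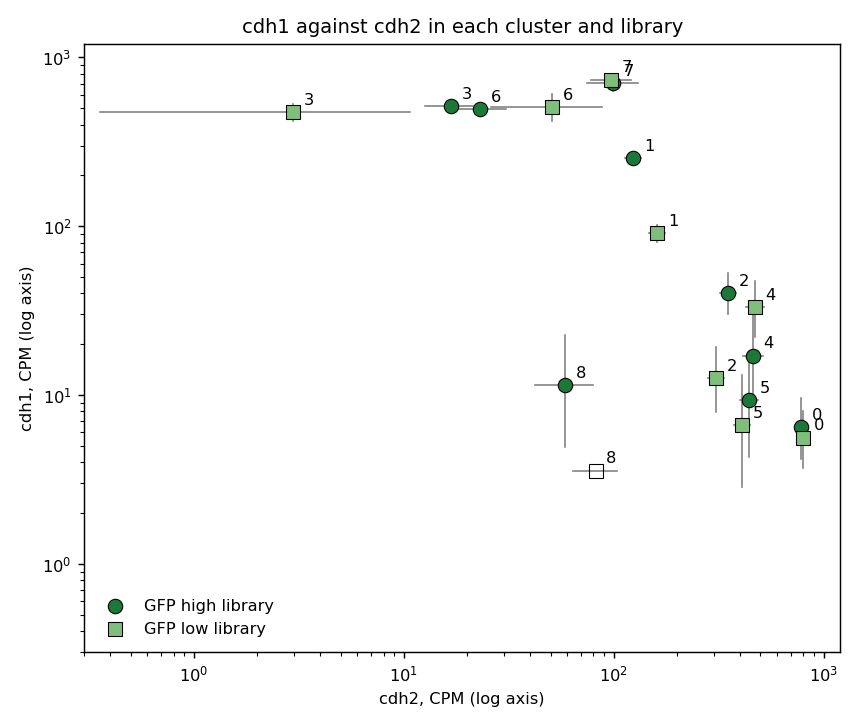
cdh1 (vertical axis) against cdh2 (horizontal axis) in each cluster, both in CPM on log axes, with 1 symbol per cluster and library and lines for exact 95% Poisson intervals. An open symbol marks a cluster with no cdh1 UMI, drawn at the level of 3 UMIs without a vertical line. Clusters 3, 6 and 7 lie at the top left and middle, cluster 0 at the bottom right (781 and 799 for cdh2), and the symbols of cluster 1 lie between them at 253 and 91.1 for cdh1.

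As log2 of the cdh1 to cdh2 ratio, the melanophore-like cluster exceeded cluster 1 by 3.39 (2.94 to 3.85) in the high library and 4.15 (3.26 to 5.16) in the low. The xanthophore-like cluster exceeded cluster 1 by 3.91 (3.49 to 4.36) in the high library and 8.15 (6.26 to 11.21) in the low, the second value resting on 2 cdh2 UMIs. Both pigment-cell clusters were thus shifted towards cdh1 relative to cluster 1 in each library. Cluster 1 itself exceeded the neural progenitor-like cluster by 7.94 (7.35 to 8.59) in the high library and 6.33 (5.75 to 6.96) in the low, and the epidermis-like cluster exceeded it by 9.73 (9.0 to 10.5) and 10.1 (9.43 to 10.8). The melanophore-like cluster exceeded the epidermis-like cluster by 1.59 (0.98 to 2.21) in the high library, while in the low library the difference of 0.40 (-0.54 to 1.45) was within counting error. The cdh2 UMIs of cluster 7 lay in 22 of 76 cells of the high library and 36 of 129 of the low. Those cells had no UMI of icn2, a leading gene of cluster 7. icn2 was picked because it differed most between cells with and without cdh2. Whether the ratio of cluster 7 pools unlike cells was not tested. The differences of clusters 6 and 3 over 1 and of clusters 1 and 7 over 0 kept their sign under every alternative run, and none was run for cluster 6 over 7. Leaving out cells outside cluster 7 with 10 or more epidermis UMIs lowered the value for cluster 6 over 1 in the low library to 2.67, and raised that for cluster 1 over 0 in the low library to 8.04 and that for cluster 7 over 0 to 10.83. Leaving out the top doublet scores raised cluster 3 over 1 in the high library to 5.29, cluster 1 over 0 in the low library to 7.27 and cluster 7 over 0 in the low library to 11.01.

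Gene by gene, a change was called where the ratio was at least 2-fold in the same direction in both libraries, among genes with 20 or more UMIs in each. cdh4 had too few UMIs for this rule in all 4 comparisons of clusters. For the melanophore-like cluster over cluster 1, 0 of the 4 other members were called higher and 2 were called lower, where 4.46% of all 7624 genes tested were called higher and 9.14% lower. The 2 called lower were cdh2, at a log2 ratio of -2.42 (-2.87 to -2.0) in the high library and -1.67 (-2.64 to -0.86) in the low, and cdh6, at -1.56 and -1.90. In the low library the melanophore-like cluster had 12 cdh2 UMIs, 8 of them in 1 cell. It had 6 cdh6 UMIs there, 5 of them in 1 cell. cdh1 had a log2 ratio of 0.96 (0.84 to 1.09), or 1.95-fold, in the high library and 2.47 (2.16 to 2.78), or 5.55-fold, in the low, and so missed the rule in the high library only. The call of cdh1 turned on the scaling, since it passed with TMM factors at 1.05 in the high library. Without cells that had 10 or more epidermis UMIs, which left 15 of the 22 melanophore-like cells of the low library, the ratios there were -0.63 for cdh2 and -0.96 for cdh6, and neither call held.

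For the xanthophore-like cluster over cluster 1, cdh1 was called higher and cdh2 lower among 4 members tested, where 3.63% of 7955 genes were called higher and 8.9% lower. The log2 ratio of cdh1 was 1.03 (0.92 to 1.14) in the high library and 2.37 (2.14 to 2.61) in the low, and it fell below 2-fold in the high library without the top doublet scores, at 0.99, and with totals that left out mitochondrial and ribosomal protein genes, at 0.97. That of cdh2 was -2.88 (-3.32 to -2.48) and -5.77 (-8.82 to -3.91). For cluster 1 over the neural progenitor-like cluster, cdh1 was called higher and cdh2 and cdh6 lower among 4 tested, where 13.3% of 9781 genes were called higher and 15.5% lower. cdh1 was 39.1-fold higher in the high library and 16.3-fold higher in the low, cdh2 had log2 ratios of -2.65 and -2.31, and cdh6 of -3.13 and -2.04. In the low library the cdh1 ratio was 4.88 on the log2 scale without the top doublet scores and 5.10 without the cells with epidermis UMIs, against 4.03 with all cells. The same 3 members were called in the same directions for the epidermis-like cluster over the neural progenitor-like cluster, where 10.4% of 8490 genes were called higher and 19.4% lower. There cdh1 was 108.2-fold higher in the high library and 132-fold higher in the low (log2 7.04, or 7.86 without the top doublet scores and 7.78 without the cells with epidermis UMIs), and cdh2 had log2 ratios of -2.98 and -3.04. cdh6 had log2 ratios of -4.37 in the high library, or -6.27 without the top doublet scores, and -3.69 in the low, or -2.81 with equal weight per cell. cdh11 did not differ between these 2 clusters beyond counting error in either library.

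Within the cells labelled melanophore (632 in the high library and 402 in the low, all in clusters 1 and 6), the members were followed along the pigmentation genes dct, tyrp1a, tyrp1b, pmela, tyr, slc24a5, oca2, slc45a2 and mlpha. Cells were put in 4 ranges of the summed UMIs of this list per 10000 UMIs, namely under 1, from 1, from 10, and 50 or more. In the high library these held 95, 152, 133 and 252 cells and in the low library 266, 81, 28 and 27. Ranges of a per-cell sum are not cell types, and 16, 33 and 42 cells of the high library and 19, 7 and 4 of the low lay within 20% of the limits.

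cdh1 was higher in each successive range in both libraries. In order of pigmentation it stood at 85.5, 199, 331 and 494 CPM in the high library, and at 35.8, 132, 384 and 532 CPM in the low. The highest range exceeded the lowest 5.77-fold in the high library (log2 2.53, 2.20 to 2.88) and 14.8-fold in the low (log2 3.89, 3.49 to 4.30). Thinned to 3000 UMIs, the share of cells with a cdh1 UMI was 18.5%, 34.6%, 51.2% and 67.2% in the high library and 9.45%, 27.8%, 55.8% and 73.9% in the low. cdh2 ran the other way, at 201, 117, 104 and 30.1 CPM in the high library and 193, 107, 52.5 and 42.5 CPM in the low, with log2 ratios of the highest over the lowest range of -2.74 (-3.14 to -2.36) and -2.18 (-3.15 to -1.36). cdh6 also was lower in the highest range, at 18.8 CPM against 60.8 CPM in the lowest range of the high library and 21.3 CPM against 115 CPM in the low, but its middle ranges were not ordered (32.2 and 32.5 CPM in the high library, 45.7 and 60.6 CPM in the low). mitfa, the master transcription factor of melanocytes, which was not in the list, stood at 409.7, 543, 835 and 1446 CPM in the high library and 349.8, 422, 832 and 1464 CPM in the low. Within labelled cells cdh1 was thus higher, and cdh2 lower, with more pigmentation UMIs in both libraries. The lower ranges held cells of cluster 1 almost alone, and the highest held 194 of 252 and 22 of 27 cells from cluster 6.

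**Figure D3:**
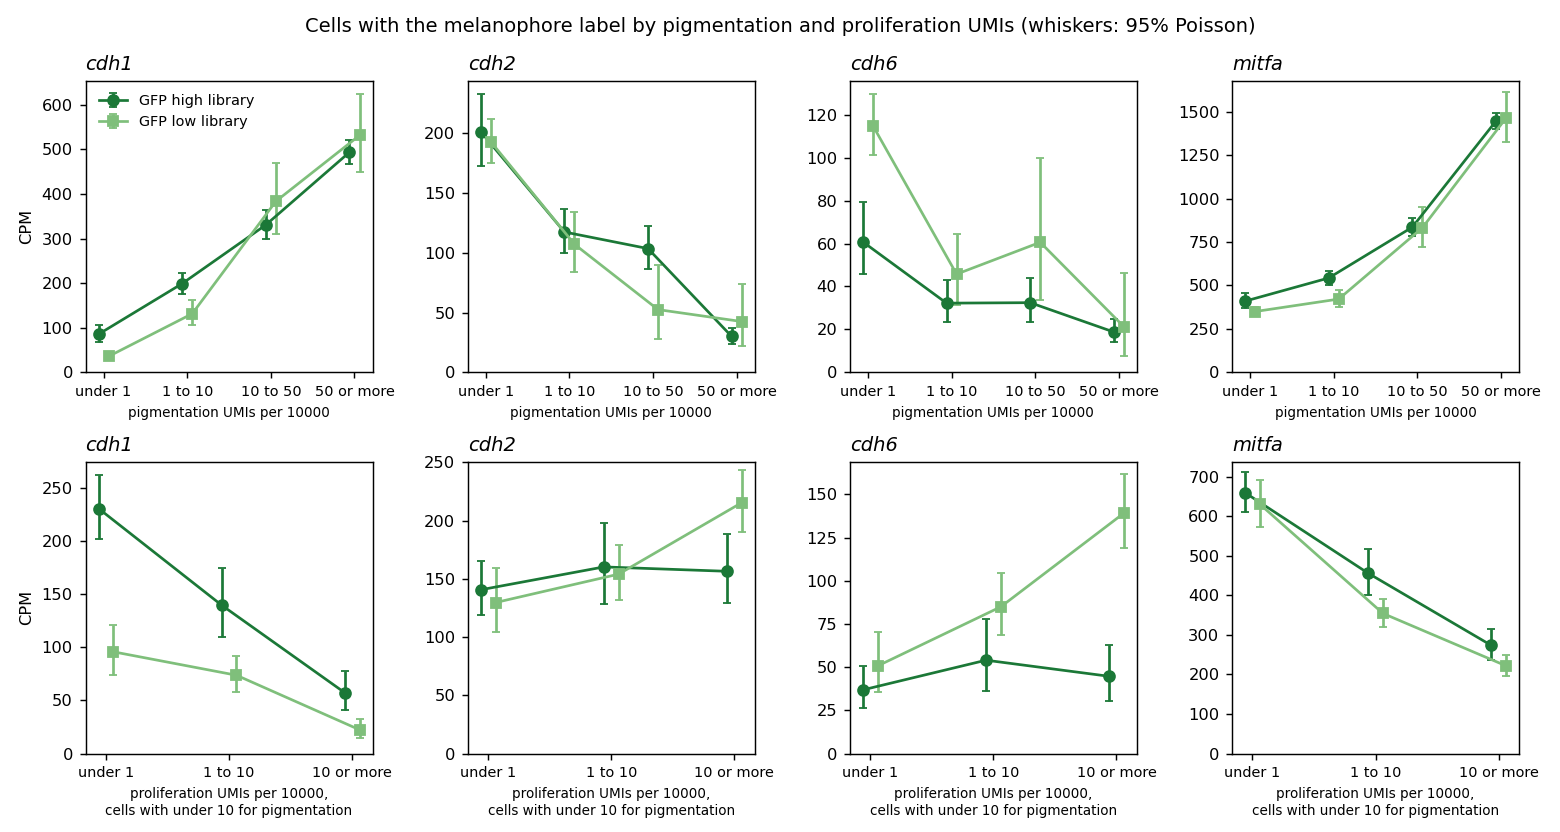
CPM (vertical axes, linear, from 0) of cdh1, cdh2, cdh6 and mitfa in cells with the melanophore label, by pigmentation UMIs per 10000 (upper row) and, for cells with under 10 of those, by proliferation UMIs per 10000 (lower row). Circles are the high library, squares the low library, and whiskers exact 95% Poisson intervals. In the upper row cdh1 climbs to 494 and 532 while cdh2 drops to 30.1 and 42.5.

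Set side by side within a range, the libraries differed in cdh1 beyond counting error only in the ranges of low pigmentation. The log2 ratio of high over low was 1.26 (0.79 to 1.72) in the lowest range and 0.60 (0.25 to 0.95) in the next, against -0.21 (-0.54 to 0.12) and -0.11 (-0.35 to 0.15) in the upper ranges. Whether these ratios differ from each other was not tested. For cdh2 the ratio in the lowest range was 0.06 (-0.20 to 0.32), within counting error, and in the range from 10 it was 0.98 (0.16 to 1.93), the only range in which the libraries differed beyond it. In that range the low library had 13 cdh2 UMIs, in 5 of 28 cells. For cdh6 the ratio in the lowest range was -0.92 (-1.37 to -0.49), and the intervals of the other ranges included 0.

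Among labelled cells with under 10 pigmentation UMIs per 10000, a second grouping used 10 proliferation genes (mki67, pcna, top2a, cdk1, plk1, mcm5, rrm2, aurkb, ccnb1 and cdc20). The ranges were under 1, from 1, and 10 or more per 10000 UMIs, with 125, 61 and 61 cells in the high library and 95, 130 and 122 in the low. cdh1 was lower with more proliferation UMIs, at 231, 139.7 and 57.3 CPM in the high library and 95.8, 73.7 and 22.4 CPM in the low (log2 of highest over lowest range -2.01, -2.53 to -1.53, and -2.10, -2.80 to -1.44). mitfa ran the same way, at 660.1, 456 and 274 CPM in the high library and 631, 355 and 222 CPM in the low. For cdh2 and cdh6 the highest range exceeded the lowest beyond counting error in the low library only. The intervals of the 2 libraries overlapped, and whether their ratios differ was not tested. cdh2 was at 156 CPM in the highest range against 141 CPM in the lowest in the high library, within counting error, and at 215 CPM against 129.6 CPM in the low library (log2 0.73, 0.38 to 1.09). cdh6 was at 44.7 CPM against 36.8 CPM in the high library, again within counting error, and at 139 CPM against 50.7 CPM in the low library (log2 1.46, 0.93 to 2.02).

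At the level of single cells, cluster 1 held cells with UMIs of either gene and of both. Unthinned, 132 of 435 cells of the high library and 49 of 380 of the low had UMIs of cdh1 and cdh2. At 3000 UMIs per cell, 31.0% of the cells of the high library had cdh1 only, 16.7% cdh2 only, 8.94% both and 43.4% neither, and in the low library 14.1% had cdh1 only, 26.5% cdh2 only, 3.56% both and 55.8% neither. The product of the single shares was 10.2% in the high library and 5.32% in the low, so both genes met in 0.873 times and 0.670 times as many cells as the product gives. In the epidermis-like cluster the same ratio was 0.822 and 0.969. cdh2 and cdh6 met more often than the product in cluster 1, by 1.41 times and 1.25 times (3.52% and 6.91% of cells with both), and as often as the product in the neural progenitor-like cluster, by 1.00 times in both libraries (32.3% and 35.4% of cells). They also exceeded the product in the melanophore-like (4.59 and 7.29 times, in 8 and 1 cells unthinned) and epidermis-like clusters (2.70 and 1.29 times). In the mesenchyme-like and neuron-like clusters they met less often than the product (0.726 and 0.822 times, 0.947 and 0.893 times). No interval was computed for these ratios. In the melanophore-like cluster 63.5% and 66.9% of cells had cdh1 only, against 3.75% and 5.75% with both and 1.63% and 3.0% with cdh2 only, and in the xanthophore-like cluster 68.7% and 70.1% had cdh1 only, against 2.07% and 0.540% with both.

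**Figure D4:**
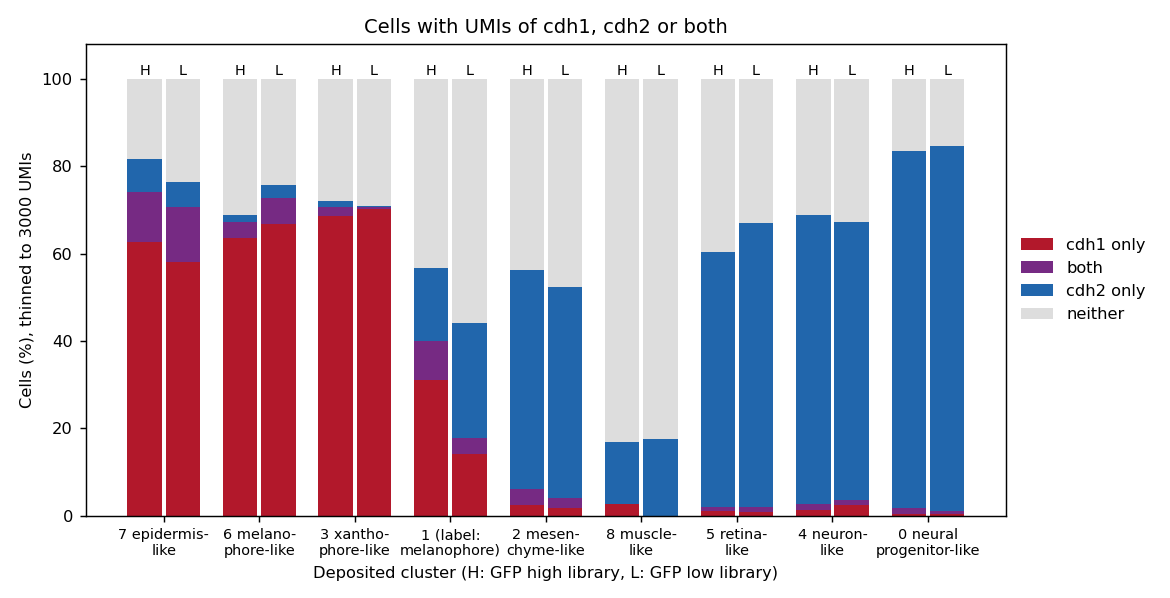
Share of cells (vertical axis, percent, from 0) with UMIs of cdh1 only, of both genes, of cdh2 only and of neither after thinning each cell to 3000 UMIs, stacked per cluster with the high library (H) left of the low library (L). Cluster 1 holds 31.0% and 14.1% of cells with cdh1 only and 16.7% and 26.5% with cdh2 only, while most cells with a UMI of either gene have cdh1 in clusters 3, 6 and 7 and cdh2 in clusters 0, 2, 4 and 5.

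Cells with a UMI of a member were then set against cells of the same cluster and library without one, and some of the 8 genes that differed most in each direction in both libraries are named, a choice made after their values were seen. Genes picked as the most different must differ, so they describe these cells and support no theme. Depth differed between these cells too, with medians of 5275 UMIs with cdh6 and 3943 without in cluster 0 of the high library, and of 5368.5 with cdh11 and 6203 without in cluster 2. The comparison has no test, and the part of depth in it was not tested. The neural progenitor-like cells with cdh6 (329 with and 438 without in the high library, 446 and 555 in the low) came first. atoh1a, a proneural factor of the rhombic lip, was at 247 CPM with cdh6 and 16.7 CPM without in the high library, and at 188 CPM and 1.74 CPM in the low. olig3, a factor of dorsal neural progenitors, was at 149.8 CPM with and 20.9 CPM without in the high library, and at 115 CPM and 14.4 CPM in the low. The posterior Hox genes hoxd9a, hoxd12a and hoxc13a and the dorsal gene msx2b were higher with cdh6 too. The genes that were lower included the following. shha, the ventral midline signal, was at 6.16 CPM with cdh6 and 44.0 CPM without in the high library, and at 10.3 and 57.4 CPM in the low, and neurog1, a proneural factor, was at 28.7 and 116 CPM in the high library and 23.6 and 94.0 CPM in the low. dbx1a, dbx1b and otx2a were lower as well.

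In the neuron-like cluster the few cells with cdh6 (26 with and 122 without in the high library, 36 and 161 in the low) had more of the early neuronal factor neurod1, at 1184 CPM with and 328 CPM without in the high library and 1322 and 265 CPM in the low. They also had more fabp7a, a radial glial gene, at 941 and 179 CPM in the high library and 946 and 176 CPM in the low. p2rx3a, of sensory neurons, vsx1, of interneurons and bipolar cells, and bhlhe22 had no UMI in cells with cdh6 in either library, where 3 UMIs would be 18.2 CPM in the high library and 15.4 CPM in the low. Cells without cdh6 had 151, 218 and 194 CPM of these 3 genes in the high library and 218, 108.2 and 129 CPM in the low.

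In cluster 1, cells with cdh2 (216 with and 219 without in the high library, 189 and 191 in the low) had more dlx5a, a homeobox factor of pharyngeal arch crest, at 119 CPM with and 31.9 CPM without in the high library and 344 and 68.8 CPM in the low. They had less tyrp1b, a melanin synthesis gene, at 87.3 and 270.2 CPM in the high library and 5.69 and 53.7 CPM in the low. Cells with cdh1 (267 with and 168 without in the high library, 125 and 255 in the low) had more dct, another melanin synthesis gene, at 729 and 163 CPM in the high library and 185 and 18.1 CPM in the low, and more aox5, a xanthophore gene, at 47.1 and 8.30 CPM and 72.1 and 13.4 CPM. The hairy-related genes her2, her12 and her15.1 were lower in these cells.

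The mesenchyme-like cells with cdh11 (52 with and 147 without in the high library, 65 and 200 in the low) had more tnc, an extracellular matrix gene, at 425 CPM with and 85.2 CPM without in the high library and 329 and 107 CPM in the low. The basement membrane collagens col4a5 and col4a6 were higher as well, and the crest and muscle progenitor factor pax3a was lower, at 26.4 and 152 CPM and 34.4 and 96.4 CPM. In the epidermis-like cluster, cells with cdh2 (22 with and 54 without in the high library, 36 and 93 in the low) were compared likewise. icn2 had no UMI in them in either library (3 UMIs would be 15.4 and 10.2 CPM), against 1335 CPM without cdh2 in the high library and 1863 CPM in the low, and agr1 had none against 301 and 606 CPM. They had more eya1, a placode factor, at 420.1 and 97.5 CPM and 566 and 137 CPM, and more stm, an otolith gene, at 789 and 91.6 CPM and 784 and 240.1 CPM.

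Between the sorted populations, 1 of the 5 members was called higher and 0 lower by a 2-fold rule without a second library to check it, where 6.62% of 14738 genes were called higher and 5.23% lower. With totals 976 genes were called higher and 771 lower, and with TMM factors in their place 1219 and 595. cdh1 was at 241 CPM in the high library and 99.4 CPM in the low, 2.43-fold higher (log2 1.28, 1.19 to 1.37). cdh2 was at 282 CPM in the high library and 416 CPM in the low (log2 -0.56, -0.62 to -0.51), cdh6 at 109 and 183 CPM (log2 -0.74, -0.82 to -0.65), and cdh11 at 13.9 and 19.9 CPM (log2 -0.52, -0.77 to -0.27). cdh4, with 25 and 29 UMIs, did not differ beyond counting error. For the other 4 members every alternative run kept the sign and moved the fold by less than 1.5 times.

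These differences over all cells sat on different mixtures of cells. Cluster 3 made up 13.6% of cells in the high library and 3.30% in the low, cluster 6 8.30% and 0.932%, cluster 0 32.3% and 42.4%, and cluster 7 3.20% and 5.46%. If each cluster had the level of the low library but the share of UMIs of the high library, cdh1 would stand at 196 CPM, between the 241 CPM of the high library and the 99.4 CPM of the low. The same mixture gave 291 CPM for cdh2, 136 CPM for cdh6 and 14.7 CPM for cdh11, against 282, 109 and 13.9 CPM measured in the high library and 416, 183 and 19.9 CPM in the low. For cdh11 the level of the mixture lay within the interval of the high library (12.2 to 15.8), for cdh2 just above it (274 to 289.6), and for cdh1 and cdh6 outside it (234 to 249 and 105 to 114).

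Within the clusters where cdh1 was highest, its levels agreed between the libraries within counting error. For cdh1 the log2 ratios of high over low were -0.07 (-0.26 to 0.11) in the epidermis-like, -0.04 (-0.31 to 0.25) in the melanophore-like and 0.13 (-0.05 to 0.30) in the xanthophore-like cluster. Cluster 1 departed from this for 3 members. There cdh1 was 2.78-fold higher in the high library (log2 1.47, 1.29 to 1.66), cdh2 was lower at a log2 ratio of -0.38 (-0.56 to -0.20), and cdh6 was lower at -1.25 (-1.53 to -0.97), with 162 UMIs in the high library and 310 in the low. Without cells that had 10 or more epidermis UMIs, which took out 195 of 435 and 147 of 380 cells of cluster 1, the ratios were 1.09 for cdh1, -0.12 for cdh2 and -0.87 for cdh6. The part of these cells in the result was not tested further. By rising pigmentation range, the cells of cluster 1 numbered 95, 152, 130 and 58 in the high library. In the low library they numbered 266, 81, 28 and 5. In the ranges below 50, nearly all cells of cluster 1, the log2 ratios of high over low were 0.06, 0.13 and 0.98 for cdh2. They were 1.26, 0.60 and -0.21 for cdh1 and -0.92, -0.51 and -0.90 for cdh6. The part of pigmentation in these differences was not tested. The other departures were a higher cdh1 in the mesenchyme-like cluster of the high library (log2 1.67, 0.93 to 2.46, with 16 of its 54 UMIs in 1 cell), a bound for cdh1 in the muscle-like cluster (8 UMIs against 0), and small or sparse differences of cdh2 and cdh6.

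**Figure D5:**
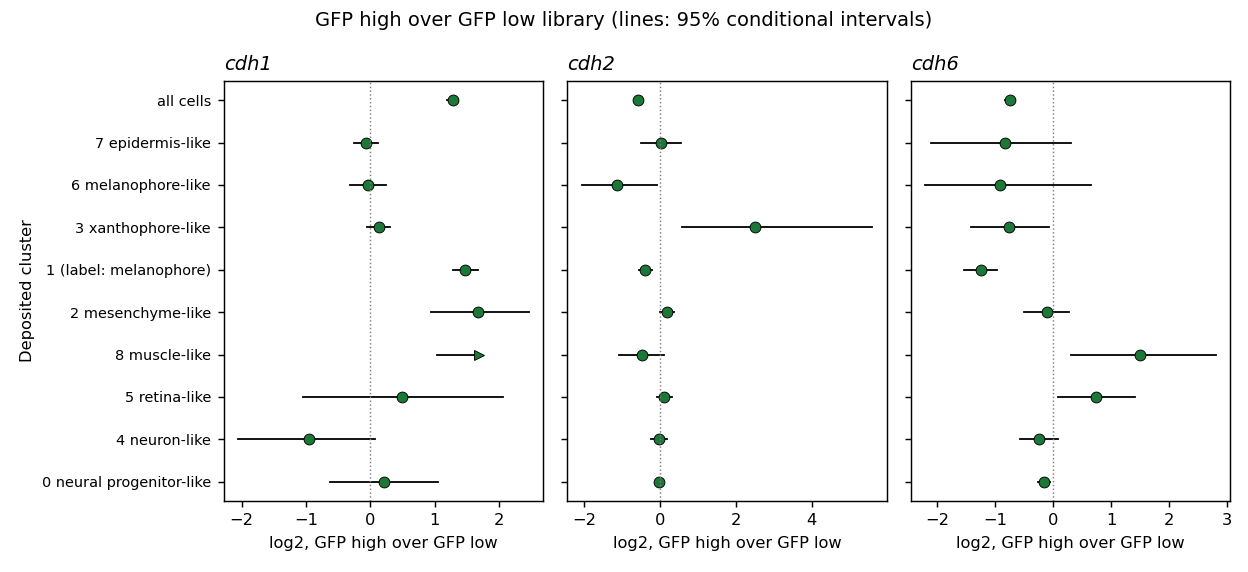
Log2 ratio of the high over the low library (horizontal axes) for cdh1, cdh2 and cdh6 in all cells and in each cluster (vertical axis), with lines for exact conditional 95% intervals, a dotted line at 0 and a triangle for a lower bound (no UMI in the low library). Over all cells cdh1 lies at 1.28, cdh2 at -0.56 and cdh6 at -0.74, whereas for cdh1 the lines of clusters 3, 6 and 7 cross 0 and cluster 1 departs for cdh1 (1.47) and cdh6 (-1.25).

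The partners of the cadherins were described from lists written with earlier results of these data known, by their counts and median log2 ratio beside those of all genes tested. For cluster 6 over 1, 4.46% of all genes tested were called higher and 9.14% lower. These shares were 3.63% and 8.9% for cluster 3 over 1, and 13.3% and 15.5% for cluster 1 over 0. For cluster 7 over 0 they were 10.4% and 19.4%. Of 15 catenin and p120-related genes, 8 were tested for the melanophore-like cluster over cluster 1, with 0 called higher, 1 lower and a median of -0.50 against -0.17 for all genes. For the xanthophore-like cluster over cluster 1 it was also 0 higher and 1 lower of 8, with a median of -0.88 against -0.21. The gene called lower in both was arvcfb, a p120 relative, at 7.41 CPM in the melanophore-like cluster and 34.6 CPM in cluster 1 of the high library, and 4.22 and 50.6 CPM in the low. ctnnb1, which encodes beta-catenin, was called in none of the 4 comparisons, at a level of 501 CPM in cluster 0 of the high library. jupa, which encodes plakoglobin, a catenin of desmosomes and adherens junctions, was called higher in the epidermis-like cluster over cluster 0, at 247 and 30.3 CPM in the high library and 248 and 32.1 CPM in the low, and in cluster 1 over cluster 0, at 77.2 and 30.3 CPM and 77.7 and 32.1 CPM. ctnnd2b, a neural delta-catenin, was called lower in both, at 3.43 CPM in cluster 1 and 127 CPM in cluster 0 of the high library and 3.05 and 122 CPM in the low. For the epidermis-like cluster over cluster 0, 2 catenins were called higher and 2 lower of 10 (median -0.86 against -0.53 for all genes), and for cluster 1 over cluster 0, 1 higher and 4 lower of 11 (median -0.51 against -0.03).

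Of 13 transcription factors known for repressing cadherin genes in epithelial-mesenchymal transition, 8 were tested in cluster 1 over the neural progenitor-like cluster, and 4 were called higher and 1 lower, with a median of 1.56 against -0.03 for all genes. Of all genes in that comparison, 13.3% were called higher and 15.5% lower. The factors called higher were zeb2a, at 871 CPM in cluster 1 and 159 CPM in cluster 0 of the high library and 942 and 149 CPM in the low, and snai1a, snai1b and snai2, while zeb1a was lower. In cluster 1 a higher cdh1 stood beside higher levels of 4 of the 8 factors tested. tcf3b was lower in cluster 1 than in cluster 0 without a call, at 106 and 194 CPM in the high library and 121 and 213 CPM in the low. zeb2b was lower too, at 9.31 and 31.6 CPM and 20.1 and 27.5 CPM. zeb1b was higher in the high library only, at 61.8 and 27.7 CPM against 35.7 and 36.3 CPM in the low. snai1b and snai2 are also on the list of neural crest markers. zeb2a was also high in the pigment-cell clusters, at 1020 CPM in the melanophore-like cluster of the high library and 982 CPM in the low, and at 789 and 805 CPM in the xanthophore-like cluster. snai1b was called lower in the melanophore-like cluster over cluster 1, at 1.39 and 19.6 CPM in the high library and 0 and 45.1 CPM in the low, and higher in the xanthophore-like cluster over cluster 1, at 57.4 and 19.6 CPM and 100.4 and 45.1 CPM. For these comparisons the list had 0 called higher and 1 lower of 7 (median 0.14), and 1 higher and 2 lower of 7 (median -0.53). Of all genes, 4.46% were called higher and 9.14% lower in the first (median -0.17), and 3.63% and 8.9% in the second (median -0.21). In the epidermis-like cluster over cluster 0 the list had 1 higher and 4 lower of 6 (median -2.32 against -0.53 for all genes, of which 10.4% were called higher and 19.4% lower). zeb2a was among the 4 lower, at 22.5 and 159 CPM in the high library and 56.7 and 149 CPM in the low, and snai2 was the one higher, at 73.1 and 3.37 CPM and 41.7 and 2.39 CPM. twist1a was highest in the mesenchyme-like cluster, at 413 CPM in the high library and 372 CPM in the low. It is a listed mesenchyme marker and a leading gene of that cluster, which was named by such genes.

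Protocadherins are adhesion proteins of the same superfamily without the catenin-binding tail. pcdh10a was called higher over cluster 1 in both pigment-cell clusters, at 83.4 CPM in the melanophore-like cluster and 19.6 CPM in cluster 1 of the high library, 109.6 and 3.96 CPM in the low, and 84.8 and 69.4 CPM in the xanthophore-like cluster of the high and low libraries. Its paralogue pcdh10b was called lower in both, at 4.63 CPM in the melanophore-like cluster and 42.2 CPM in cluster 1 of the high library and 0 and 109.7 CPM in the low. pcdh18b was called higher in the melanophore-like cluster over cluster 1, at 34.3 and 7.35 CPM in the high library and 46.4 and 7.92 CPM in the low. The list had 2 called higher and 2 lower of 6 tested for the melanophore-like cluster (median -0.77) and 1 higher and 3 lower of 7 for the xanthophore-like cluster (median -1.54). Of all genes, 4.46% were called higher and 9.14% lower for the melanophore-like cluster (median -0.17). For the xanthophore-like cluster these shares were 3.63% and 8.9% (median -0.21). For cluster 1 over cluster 0 there were 2 higher and 6 lower of 11 (median -1.27), with pcdh9 at 81.4 and 1.55 CPM in the high library and 68.6 and 0.798 CPM in the low, and pcdh19 at 8.33 and 184 CPM and 14.6 and 204 CPM. For the epidermis-like cluster over cluster 0 there were 1 higher and 4 lower of 8 (median -1.34). Of all genes, 13.3% were called higher and 15.5% lower for cluster 1 over cluster 0 (median -0.03). For the epidermis-like cluster over cluster 0 these shares were 10.4% and 19.4% (median -0.53).

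Desmosomal genes, which anchor keratin at epithelial contacts, were high in the epidermis-like cluster. Of 9 tested over cluster 0, 8 were called higher and 1 lower, with a median of 4.85 against -0.53 for all genes, and for cluster 1 over cluster 0 there were 1 higher and 2 lower of 5 (median -1.08). Of all genes, 10.4% were called higher and 19.4% lower in the first comparison, and 13.3% and 15.5% in the second (median -0.03). dspa, which encodes a desmoplakin, was in the epidermis-like cluster and cluster 0 at 116 and 3.89 CPM in the high library and 99.6 and 3.59 CPM in the low. In the melanophore-like and xanthophore-like clusters over cluster 1 a single desmosomal gene, dspb, had enough UMIs to be tested, called in neither direction in the melanophore-like and lower in the xanthophore-like cluster. Of 16 further cadherins, at most 1 had enough UMIs in any comparison of clusters. cdh15, M-cadherin of muscle, was highest in the muscle-like cluster, at 162 CPM in the high library and 201 CPM in the low. There cdh1 was sparse and cdh2 stood at 58.7 and 81.9 CPM. cdh5, VE-cadherin of endothelium, was highest in the mesenchyme-like cluster, at 53.8 and 36.2 CPM. Over all cells, high against low, the lists had 0 called of 12 catenins, 1 higher (snai1a) and 0 lower of 13 transcription factors, 1 higher and 3 lower of 16 protocadherins, 0 higher and 5 lower of 9 desmosomal genes, and 1 higher and 1 lower of 8 further cadherins. Of all 14738 genes tested, 6.62% were called higher and 5.23% lower. The median of the desmosomal genes was -1.01 against -0.12 for all genes. The epidermis-like cluster, where most of these genes were highest, held 3.04% of the UMIs of the high library and 5.83% of the low. The part of this mixture in the result was not tested.

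The genes whose levels were most like those of each member were ranked by Pearson correlation of log2(CPM + 5) over the 18 pools of 1 cluster and 1 library with 20 or more cells, among 5511 genes. The pools share 2 libraries and their depth, and the correlations are descriptions. For cdh1 they were arpc2 (0.97), ywhaz (0.96), abracl (0.96), capza1a (0.96) and anxa11b (0.95), for cdh2 rcor2 (0.95), pias4a, brd3b, prpf4ba and rbm25b, and for cdh6 bcor (0.91), bcl9, npas1, si:ch73-364h19.1 and spred2a. For cdh11 they were antxr1c (0.90), mfap2, LO018188.1, spry4 and cnn3a, and for cdh4, on its 54 UMIs, thsd7aa (0.94), asb7, rnasekb, pacsin1b and neurod4. Among the members, cdh2 and cdh6 were most alike (0.71) and cdh1 and cdh2 most unlike (-0.69). The names depended on the measure, since with Spearman correlation 1 of the 5 genes was kept for cdh1, 2 for cdh2, 2 for cdh6, 1 for cdh11 and 0 for cdh4.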

How the data were processed

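The authors had made UMI counts per gene and cell with Cell Ranger 6.1.2 and the GRCz11 build, per the submitters' processing notes; the annotation release is not given in the sources used here. The deposited cell table of the authors, made with Seurat, gives clusters, the melanophore label and a mitochondrial percent per cell. Counts came from the matrix of each library, over the 4735 cells of that table; 541 barcodes were left out. Sums carry exact Poisson, ratios exact conditional and shares Clopper-Pearson intervals; for a share of 0 the limit given is 3 cells of the total. A side at 0 was set to 3 UMIs, with no ratio if neither side exceeded this floor. Thinned shares are expectations at 3000 UMIs. The members, gene lists and markers were chosen with earlier results of these data known. Genes named beyond the members came from the 4 highest of each list and those called, not all of which are named, and were the 5 of most like pattern; genes that set apart cells with a UMI were chosen after their values were seen. Scrublet in scanpy 1.11.5 marked 6 of 2605 barcodes of the high and 5 of 2671 of the low library, too few to be usable, so an alternative dropped the top 5% of scores. TMM factors came from edgeR 4.0.16 in R 4.3.3, other steps from Python 3.11.15, numpy 2.4.6 and scipy 1.17.1. The scripts were tested on simulated data.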

Additional observations from a re-analysis of the deposited data

Results flagged for a closer look

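The ratio of the high over the low library had opposite signs in different clusters for cdh2 and cdh6, each with an interval apart from 0, and the difference between clusters was not tested. For cdh2 the log2 ratio was 0.19 (0.01 to 0.37) in the mesenchyme-like and 2.51 (0.59 to 5.59, 54 UMIs in the high and 2 in the low library) in the xanthophore-like cluster, against -0.38 (-0.56 to -0.20) in cluster 1 and -1.13 (-2.06 to -0.08, 50 and 12 UMIs, 8 of the 12 in 1 cell) in the melanophore-like cluster. For cdh6 it was 0.74 (0.08 to 1.40) in the retina-like and 1.49 (0.30 to 2.80) in the muscle-like cluster, where 17 of the 21 UMIs of the high library lay in 1 cell, against -0.16 (-0.26 to -0.05) in the neural progenitor-like cluster, -1.25 (-1.53 to -0.97) in cluster 1 and -0.77 (-1.42 to -0.08) in the xanthophore-like cluster.

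In barcodes that the cell table left out, 4 of 10 cadherin levels had intervals above the level of the kept cells. The share of all genes for which this holds was not counted, so the count says nothing particular to cadherins. In the 231 left out of the high library (median 1160 UMIs), cdh1 stood at 479 CPM (429 to 534) against 241 CPM in its kept cells. In the 310 left out of the low library (median 945 UMIs), cdh1 stood at 135 CPM (113 to 159) against 99.4 CPM, cdh2 at 462 CPM (422 to 505) against 416 CPM, and cdh4 at 8.47 CPM (3.87 to 16.1, 9 UMIs) against 1.96 CPM. For cdh2 the interval of the kept cells, 406 to 427 CPM, overlapped that of the left-out barcodes.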

How the results depend on the processing

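All 40 values of the change in the cdh1 to cdh2 ratio between clusters (6 over 1, 3 over 1, 1 over 0 and 7 over 0) had the sign given in the report, and 34 of them stayed within its interval. Without cells outside cluster 7 that had 10 or more epidermis UMIs, the change was 2.67 for cluster 6 over 1, 8.04 for cluster 1 over 0 and 10.83 for cluster 7 over 0, all in the low library. Without the top 5% of doublet scores it was 5.29 for cluster 3 over 1 in the high library, and 7.27 for cluster 1 over 0 and 11.01 for cluster 7 over 0 in the low. Of 45 values of high over low in all cells, 32 stayed within the interval. With equal weight per cell the log2 ratios were 1.18 for cdh1, -0.39 for cdh2, -0.54 for cdh6 and -0.24 for cdh11. Without the cells with epidermis UMIs they were 1.01 for cdh1, -0.43 for cdh2 and -0.53 for cdh6, with TMM factors 1.41, -0.43 and -0.61, and with the median of ratios 1.44, -0.40 and -0.58. These 2 scalings shift all genes by 0.13 and 0.16 between the libraries, and by 0.19 or less in size between clusters other than cluster 6 over 1 in the low library (-0.22 with TMM factors). The cause was not tested for any of these. Within clusters, 293 of 300 values of high over low stayed within the interval, and 1 reversed, cdh6 in the muscle-like cluster, at -1.93 without the top doublet scores. Of 263 values of cluster over cluster 241 stayed within the interval. All 231 values that belong to a ratio with an interval apart from 0 kept their sign. This is not the 2-fold call, which did not hold for some members. The highest cluster of the thinned share was the same at 1000 and 6000 UMIs, except for cdh1 in the low library, where it was cluster 7, 6 or 3 at 1000, 3000 or 6000 UMIs. Counts of all genes called moved with the rule. Over minima of none or 100 UMIs and folds of 1.5 and 3, cluster 6 over 1 had 103 to 752 called higher and 280 to 1364 lower (340 and 697 in the report), cluster 3 over 1 had 115 to 548 and 281 to 1412 (289 and 708), cluster 1 over 0 had 577 to 2122 and 777 to 2358 (1304 and 1516), cluster 7 over 0 had 276 to 1638 and 669 to 2949 (882 and 1649), and high over low had 414 to 2015 and 194 to 2508 (976 and 771). No paired analysis was possible because each group had 1 library and the labels give no replicate numbers. Depth limits cdh4, with 54 UMIs in all, and values from the 22 melanophore-like cells of the low library. No replicate exists to measure the spread between libraries, embryos or sorts.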

Other observations

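The 19 cells of cluster 9, all from the low library and with a median of 3962 UMIs, had 27 cdh2 UMIs (312 CPM, 206 to 454), 15 cdh6 UMIs (174 CPM, 97.1 to 286), of which 13 lay in 1 cell, 10 cdh1 UMIs (116 CPM, 55.5 to 213), 1 cdh4 UMI and no cdh11 UMI, which allows up to 15.8% of cells with one (3 of 19). Of their 10 leading genes, 4 (ins, sst2, gcga and sst1.2) are on the list of pancreatic islet markers. They entered no comparison.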
